A study of Mus musculus with 4 samples.

Results

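RNA-Seq of differentiating brown preadipocytes was examined for 9 genes of the lipid droplet: the perilipins *Plin1*, *Plin2*, *Plin3*, *Plin4* and *Plin5*, the fusion factor *Cidec*, the assembly factors *Bscl2* and *Fitm2*, and the hypoxia-inducible droplet protein *Hilpda*. They are 9 of the 22459 gene symbols in the files. They were chosen by name, as proteins that coat or build lipid droplets, and not by any measured value. Of 29082 RefSeq transcripts, 13 belong to these genes, and each gene is given by the transcript with most reads over the 4 libraries. The cells were brown preadipocytes of C57BL/6J mouse embryos at E18.5, immortalized with SV40 large T antigen, in which *Mll3* is disrupted and *Mll4* carries floxed alleles (*Mll3*-/- *Mll4* f/f). MLL3 and MLL4 are methyltransferases that place H3K4 methylation on enhancers. GFP cells are those that received Ad-GFP, an adenovirus for green fluorescent protein, which leaves *Mll4* in place, so that they lack MLL3 (the labels call them WT with genotype MLL3-/-). Cre cells are those that received Ad-Cre, which expresses the Cre recombinase, and are labelled MLL4 KO (MLL3-/-;MLL4-/-). By genotype, every library therefore comes from cells without MLL3. The sources used here describe immortalized cultures, and do not give from how many embryos these libraries came. RNA was sequenced at day 0, after confluence, and at day 2 of adipogenesis, induced with insulin, T3, indomethacin, dexamethasone and IBMX. There was 1 library for each of the 4 conditions, so the spread between cultures is unknown, no p-value is given, and the intervals given are exact 95% confidence intervals that cover the counting error of the reads alone.

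A lipid droplet is a core of triglyceride and sterol ester under a phospholipid monolayer. Seipin, the product of *Bscl2*, and FIT2, the product of *Fitm2*, act in the endoplasmic reticulum where droplets form. Perilipins then coat the monolayer: PLIN2 and PLIN3 are found on droplets of many cell types, PLIN1 is the main coat of the fat cell and holds back lipolysis until it is phosphorylated, PLIN4 binds small young droplets, and PLIN5 is best known from tissues that burn fat, brown fat among them. CIDEC, also called FSP27, sits at droplet contacts and passes lipid from the smaller to the larger droplet. HILPDA inhibits the triglyceride lipase ATGL, the product of *Pnpla2*, and its gene is a target of the hypoxia-inducible factors. Loss of seipin, PLIN1 or CIDEC function in people is a known cause of lipodystrophy.

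The libraries held 17198448 mapped reads (GFP, day 0), 22986362 (GFP, day 2), 19511448 (Cre, day 0) and 18031815 (Cre, day 2), as computed back from the deposited counts and RPKM (reads scaled to the length of the exons and to library size). On a transcript of 1 kb, 3 reads correspond to between 0.131 and 0.174 RPKM. *Mll4*, listed as *Kmt2d*, had 6304, 8530, 6316 and 5595 reads in the same order, a count over the whole transcript that cannot show whether the floxed exons were lost, so the libraries are named by their labels. All 5 markers of the adipocyte lineage (*Pparg*, *Cebpa*, *Fabp4*, *Adipoq* and *Lpl*) rose over 2.5-fold with differentiation in both GFP and Cre cells and were over 2.5-fold lower in Cre than in GFP cells at day 2. Their summed level was 29.8, 1946, 15.2 and 474 RPKM in the order of libraries above. That of 4 mesenchymal markers (*Pdgfra*, *Pdgfrb*, *Col1a1* and *Thy1*) was 1704, 154, 1325 and 250 RPKM. At day 0 most of that sum was *Col1a1*, while *Pdgfra* had 73.6 RPKM in GFP and 9.72 in Cre cells at day 0 (log2 ratio −2.92). The part of these marker levels in the results for the droplet genes was not tested. *Ucp1*, the defining gene of brown fat, had between 0 and 1 read in each library, so that the brown fat label was not met by *Ucp1* at these time points. *Ppargc1a* had at most 9 reads, *Prdm16* between 0.554 and 2.14 RPKM, and *Ebf2* between 4.77 and 16.1 RPKM. Of the macrophage and blood markers *Ptprc* and *Adgre1* had 0 reads throughout and *Csf1r* at most 16, the endothelial markers *Pecam1*, *Cdh5* and *Kdr* had at most 12, and the skeletal muscle markers *Myog* and *Myh3* had 0. *Acta1*, listed with the muscle markers, had 453, 12, 1356 and 88 reads.

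*Plin2* and *Plin3* were already abundant in preadipocytes and the others were scarce or moderate, and after 2 days the order had turned. From day 0 to day 2 in GFP cells *Cidec* went from 0.649 to 105 RPKM, *Plin1* from 0.546 to 53.7 and *Fitm2* from 7.01 to 134. In Cre cells at day 2 the same 3 genes reached 23.4, 16.8 and 26.7 RPKM. *Plin3* and *Hilpda* stood apart from them, with 1.26 and 1.53 times the GFP level in Cre cells at day 2. The plot of levels shows all 9 genes in the 4 libraries.

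**Figure D1:**
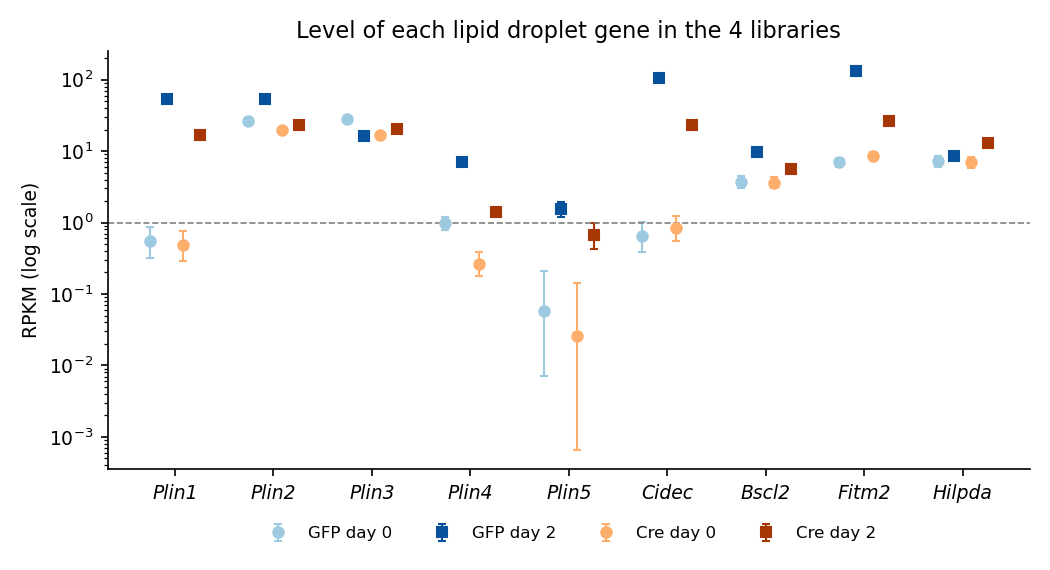
Level of each gene in RPKM (vertical axis, log scale) in the 4 libraries, with exact Poisson 95% intervals of the read count as bars and a dashed line at 1 RPKM. *Plin1*, *Plin4*, *Plin5* and *Cidec* lie below the line in GFP cells at day 0 and above it at day 2, while *Plin2* and *Plin3* lie between 16.2 and 53.1 RPKM in every library.

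The genes lie at separate loci of NCBI37/mm9, apart from *Plin4*, *Plin5* and *Plin3*, which share a stretch of chromosome 17. *Plin4* (NM_020568, 56240014 to 56249225) and *Plin5* (NM_001077348, 56251024 to 56257019) are next to each other on the minus strand with 1798 bases between them. *Plin3* (NM_025836, 56418385 to 56429934) follows on the same strand, 161365 bases beyond *Plin5*. *Plin1* (NM_175640) is on the minus strand of chromosome 7 from 86866050 to 86877662, and *Plin2* (NM_007408) on that of chromosome 4 from 86294290 to 86315964. *Cidec* (NM_178373, minus strand, 113374628 to 113385754) and *Hilpda* (NM_023516, plus strand, 29222488 to 29225446, annotated as 2310016C08Rik) are both on chromosome 6. *Fitm2* (NM_173397) is on the minus strand of chromosome 2 from 163292115 to 163298365. *Bscl2* (NM_001136064, plus strand, 8911957 to 8923173) is on chromosome 19. The counts are over all exons of a transcript, coding and untranslated. The coding part is 80.9% of the bases for *Plin1*, 42.1% for *Cidec* and 19.6% for *Hilpda*. *Fitm2* was counted over 1643 bases, whereas the annotated transcript has 3967. Its RPKM and its ratios are those of the counted bases, and the rest of the annotated transcript was not counted.

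The promoters of genes that moved together, and of 2 that did not move with them, are shown as the 250 bases before the RefSeq start site, from a RefSeq table of assembly GRCm38.p6 that held all 9 genes, and placed on NCBI37/mm9 by exact match. Capitals mark matches on either strand to 7 sets of letters. The C/EBP transcription factors were searched as TTGCNNAA. The element bound by PPAR and RXR has repeated sites with the letters AGGTCA. The letters ACGTG or GCGTG were searched as the HIF type. An E-box, which overlaps the HIF type, was searched as CACGTG. Core promoter letters were those of the GC box, GGGCGG, of the box named CCAAT, and of the TATA box, TATAAA. The 3 genes with the highest day 2 level in GFP cells, over 2.5-fold lower in Cre cells, come in the lines for *Fitm2*, *Cidec* and *Plin1*, with a second *Cidec* start 996 bases inside the gene whose window holds no annotated exon. *Plin3* and *Hilpda* are the 2 genes that were not lower in Cre cells at day 2.
Fitm2, chr2:163298366-163298615, minus strand: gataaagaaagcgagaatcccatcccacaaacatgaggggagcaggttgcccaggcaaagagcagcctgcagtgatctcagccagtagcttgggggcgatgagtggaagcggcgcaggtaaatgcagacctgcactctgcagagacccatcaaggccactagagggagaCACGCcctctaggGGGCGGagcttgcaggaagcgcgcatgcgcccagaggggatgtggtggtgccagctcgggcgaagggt
Cidec, chr6:113385755-113386004, minus strand: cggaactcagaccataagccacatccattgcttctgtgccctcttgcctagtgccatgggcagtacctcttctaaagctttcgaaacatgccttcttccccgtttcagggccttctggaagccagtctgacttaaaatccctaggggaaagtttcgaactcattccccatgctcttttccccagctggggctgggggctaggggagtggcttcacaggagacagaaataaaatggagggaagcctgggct
Cidec, inner start, chr6:113384759-113385008, minus strand: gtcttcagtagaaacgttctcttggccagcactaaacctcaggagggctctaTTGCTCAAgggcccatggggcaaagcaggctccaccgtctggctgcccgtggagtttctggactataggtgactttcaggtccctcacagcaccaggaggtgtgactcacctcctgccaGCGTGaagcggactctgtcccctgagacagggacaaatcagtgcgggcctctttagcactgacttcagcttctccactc
Plin1, chr7:86877663-86877912, minus strand: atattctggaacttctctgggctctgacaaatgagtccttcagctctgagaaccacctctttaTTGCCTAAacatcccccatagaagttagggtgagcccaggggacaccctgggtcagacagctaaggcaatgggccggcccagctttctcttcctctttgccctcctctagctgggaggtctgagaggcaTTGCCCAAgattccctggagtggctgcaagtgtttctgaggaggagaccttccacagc
Plin3, chr17:56429935-56430184, minus strand: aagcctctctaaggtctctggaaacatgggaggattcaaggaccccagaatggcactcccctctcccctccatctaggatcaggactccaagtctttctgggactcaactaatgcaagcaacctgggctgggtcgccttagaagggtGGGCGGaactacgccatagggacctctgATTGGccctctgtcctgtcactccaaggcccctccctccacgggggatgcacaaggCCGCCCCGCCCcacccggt
Hilpda, chr6:29222238-29222487, plus strand: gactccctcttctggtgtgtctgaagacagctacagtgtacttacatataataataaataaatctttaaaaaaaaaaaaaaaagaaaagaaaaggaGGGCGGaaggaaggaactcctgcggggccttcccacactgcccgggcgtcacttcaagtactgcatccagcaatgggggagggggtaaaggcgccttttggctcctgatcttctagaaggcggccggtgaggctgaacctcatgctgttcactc

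TTGCNNAA occurred at 187 and 58 bases before the start of *Plin1* and at 198 bases before the inner start of *Cidec*, and in no other window of the 9 genes. Of 32851 promoters of the same length in the table, 9.56% hold it. AGGTCA was found before a start of *Plin2*, *Plin5* and *Bscl2* (14.0% of all promoters), and AGGTCANAGGTCA, 2 such sites spaced by 1 base, before none of the 9 (0.0335%). The *Plin3* window holds 3 matches to GGGCGG (32.7% of all promoters) and 1 to CCAAT (33.8%). *Hilpda* has 1 GGGCGG in the window shown, and ACGTG or GCGTG 3 times before a second start 138 bases downstream (38.6% of all promoters hold at least 1). These HIF-type letters stood before a start of 6 of the 9 genes, *Plin2*, *Plin5*, *Cidec*, *Bscl2*, *Fitm2* and *Hilpda*. The shares of all promoters are of single windows, whereas *Plin5*, *Cidec*, *Bscl2* and *Hilpda* have more than 1 window each. Counts of genes are therefore not on the scale of these shares. The *Fitm2* window holds 1 match each to the HIF type and to GGGCGG. No window of the 9 genes holds CACGTG (6.02% of all promoters) or TATAAA (12.4%). A match is a description of the letters and not evidence of binding.

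The perilipins found on droplets of many cell types, *Plin2* and *Plin3*, made up nearly all perilipin transcripts before differentiation. *Plin2* stood at 26.8 RPKM (870 reads) in GFP cells at day 0, 53.1 (2302 reads) at day 2, 19.7 (727 reads) in Cre cells at day 0 and 23.4 (795 reads) at day 2. The GFP library at day 2 was thus the high one, and the other 3 lay between 19.7 and 26.8 RPKM. At day 0 the log2 ratio of Cre to GFP was already −0.44 (−0.59 to −0.30). On the log2 scale the change from day 0 to day 2 was 0.99 in GFP cells (0.87 to 1.10) and 0.24 in Cre cells (0.10 to 0.39), so that *Plin2* passed the cutoff of 2.5-fold in neither. At day 2 its log2 ratio of Cre to GFP was −1.18 (−1.30 to −1.07). That is past 2-fold and short of 2.5-fold. A partial copy of the *Plin2* transcript, from 86272678 to 86275476 of chromosome 4 and 18813 bases from the gene, matches 26.6% of its 50-base windows with at most 2 mismatches, and the sources used here do not give how reads with several matches were counted.

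*Plin3* was highest before differentiation in GFP cells, at 28.6 RPKM (1061 reads), and stood at 16.2 (805 reads) at day 2. In Cre cells it was 16.8 RPKM (707 reads) at day 0 and 20.4 (795 reads) at day 2. GFP and Cre cells thus went opposite ways: the log2 change from day 0 to day 2 was −0.82 (−0.95 to −0.68) in GFP cells and 0.28 (0.14 to 0.43) in Cre cells. Neither change passed 2.5-fold. Cre cells had less *Plin3* at day 0, with a log2 ratio to GFP of −0.77 (−0.91 to −0.63), and more at day 2, with 0.33 (0.19 to 0.48). The Cre change became 0.08 once each ratio was divided by the trend over transcript length described below.

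*Plin1*, the main coat of the fat cell, was near the floor at day 0 in GFP and in Cre cells, with 18 reads each (0.546 RPKM in GFP and 0.481 in Cre cells). At day 2 it reached 53.7 RPKM (2367 reads) in GFP and 16.8 RPKM (579 reads) in Cre cells. Both day 2 libraries were far above both day 0 libraries. The day 2 level was 98.4 times that of day 0 in GFP cells (62.1 to 166) and 34.8 times in Cre cells (21.8 to 59.1). Between GFP and Cre cells the log2 ratio was −0.18 at day 0 (−1.21 to 0.84), a difference not detectable at this depth, and −1.68 at day 2 (−1.81 to −1.55), or 31.2% of the GFP level.

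*Plin4* was the gene of these 9 that was past 2.5-fold between GFP and Cre cells at day 0. It had 97 reads (0.980 RPKM) in GFP and 30 reads (0.267 RPKM) in Cre cells at day 0, and 934 reads (7.06 RPKM) and 147 reads (1.42 RPKM) at day 2. The GFP library at day 2 was the high one, and Cre cells at day 2 barely passed GFP cells at day 0. The log2 ratio of Cre to GFP was −1.88 at day 0 (−2.52 to −1.27) and −2.32 at day 2 (−2.58 to −2.07), and the log2 change over 2 days was 2.85 in GFP cells (2.55 to 3.17) and 2.41 in Cre cells (1.83 to 3.02). With 1 RPKM added to both sides, as these levels are near 1 RPKM, the day 0 ratio shrank to −0.64, no longer past the cutoff, and the day 2 ratio to −1.74. PLIN4 is built of a repeat, and its transcript is too: 35.7% of the 50-base windows match 2 or more places within the gene. The most repeated of them has 10 copies in the gene, 2 of them exact, counting the window itself. It is shown since reads from such windows may match several places, and lies in the coding sequence of exon 6 at chr17:56244472-56244521 on the minus strand.
Plin4 repeat window: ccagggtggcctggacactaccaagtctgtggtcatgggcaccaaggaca

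*Plin5* was the scarcest of the 9 genes in every library. It had 2 reads (0.0584 RPKM) in GFP cells at day 0, 71 (1.55 RPKM) at day 2, 1 read (0.0257 RPKM) in Cre cells at day 0 and 24 (0.668 RPKM) at day 2. Both day 2 libraries were above both day 0 libraries. With so few reads at day 0 the log2 change ran from 2.83 to 7.80 in GFP cells around a value of 4.73, and from 2.08 to 10.1 in Cre cells around 4.70. The day 2 log2 ratio of Cre to GFP was −1.21 (−1.95 to −0.53), an interval that includes the cutoff.

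Together the 5 perilipins summed to 57.0 RPKM at day 0 and 131.6 at day 2 in GFP cells, and to 37.3 and 62.6 in Cre cells. *Plin2* and *Plin3* held 97.2% of that sum in GFP and 97.9% in Cre cells at day 0. At day 2 they held 52.6% in GFP cells and 69.9% in Cre cells. The share of *Plin1* went from 0.959% to 40.8% in GFP cells and from 1.29% to 26.8% in Cre cells. In GFP cells at day 2 *Plin1* and *Plin2* were level within counting error, whereas in Cre cells *Plin2* and *Plin3* were both above *Plin1*.

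**Figure D2:**
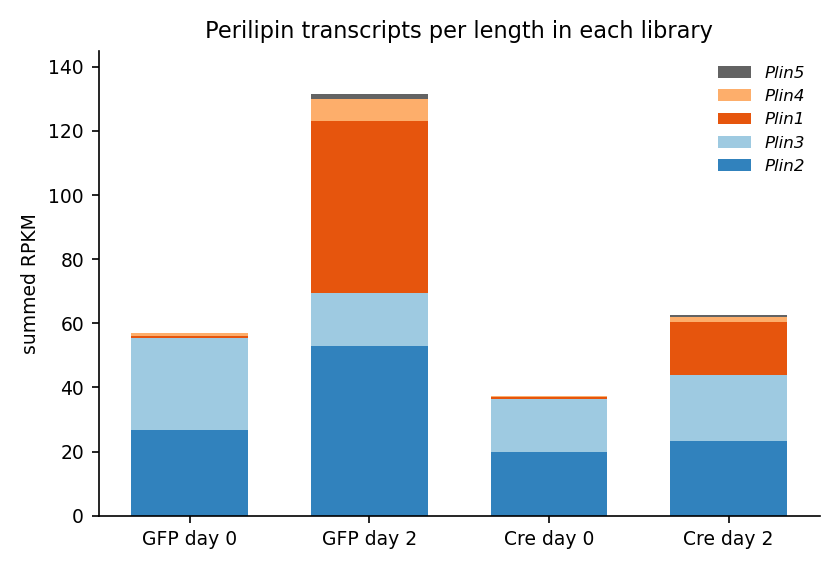
Summed RPKM of the 5 perilipin genes (vertical axis, from 0) in each library, stacked by gene. The day 0 bars are almost wholly *Plin2* and *Plin3*, and *Plin1* takes 40.8% of the GFP bar and 26.8% of the Cre bar at day 2.

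*Cidec* had the largest ratio of day 2 to day 0 of the 9 genes in GFP cells. It stood at 0.649 RPKM (19 reads) at day 0 and 105 RPKM (4116 reads) at day 2 in GFP cells, and at 0.843 (28 reads) and 23.4 RPKM (717 reads) in Cre cells. The day 0 libraries overlap within counting error and the day 2 libraries do not. The ratio of day 2 to day 0 was 162 in GFP cells (104 to 269) and 27.7 in Cre cells (19.0 to 42.0). At day 2 the log2 ratio of Cre to GFP was −2.17 (−2.29 to −2.06). Of its relatives, *Cidea*, a gene of brown fat and a droplet fusion factor like *Cidec*, had 0 reads in all 4 libraries, which allows up to 3 reads in each. *Cideb*, known from the liver, had 45, 63, 54 and 68 reads in the order of libraries given above, between 2.23 and 3.21 RPKM, with all 4 of its log2 ratios inside intervals that include 0.

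Of the assembly factors, *Fitm2* changed far more than *Bscl2*. *Fitm2* had 7.01 RPKM (198 reads) at day 0 and 134 (5057 reads) at day 2 in GFP cells, and 8.64 (277 reads) and 26.7 RPKM (792 reads) in Cre cells. By the deposited RPKM it was the highest of the 9 genes in both day 2 libraries, though in Cre cells its interval overlaps those of *Plin2* and *Cidec*. The same reads divided by the annotated length of 3967 bases would give 55.5 RPKM in GFP and 11.1 in Cre cells at day 2, below *Cidec* in both. Reads outside the 1643 bases are not in the count, so these are not levels of the longer transcript, and its rank is unknown. The day 2 to day 0 ratio was 19.1 in GFP cells (16.6 to 22.1) and 3.09 in Cre cells (2.69 to 3.56). After division by the length trend at the counted 1643 bases, the latter fell under the cutoff, to a log2 value of 1.23. The median change in Cre cells was 0.39 at that length and −0.29 in the bin with a median length of 4010.5 bases. Whether the Cre change falls under the cutoff thus depends on the length taken. The log2 ratio of Cre to GFP was 0.30 at day 0 (0.03 to 0.57) and −2.32 at day 2 (−2.43 to −2.22). Its relative *Fitm1*, known from skeletal muscle, had between 0 and 2 reads in each library.

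*Bscl2* had 3.70 RPKM (125 reads) before and 9.87 (445 reads) after 2 days in GFP cells, and 3.63 (139 reads) and 5.62 RPKM (199 reads) in Cre cells. The 2 day 0 libraries were alike within counting error, and the GFP library was the higher at day 2. The log2 change over 2 days was 1.41 in GFP cells (1.12 to 1.71), just past the cutoff, and 0.63 in Cre cells (0.31 to 0.95), and the day 2 ratio of Cre to GFP was −0.81 (−1.06 to −0.57). The GFP change was no longer past the cutoff with TMM scaling, a normalization between libraries (1.31), with 1 RPKM added (1.21), or when the lower bound of its interval was used. *Gng3*, on the opposite strand, shares 398 bases with the *Bscl2* transcript, or 20.3% of it, and had 39, 51, 54 and 21 reads in the 4 libraries. Without strand, which the sources used here do not state, reads in this overlap cannot be told apart.

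*Hilpda* had 7.20 RPKM (122 reads) at day 0 and 8.57 (194 reads) at day 2 in GFP cells, and 7.02 (135 reads) and 13.1 RPKM (233 reads) in Cre cells. The Cre library at day 2 was the high one. Its log2 change was 0.25 in GFP cells (−0.08 to 0.59) and 0.90 in Cre cells (0.59 to 1.22), and its day 2 ratio of Cre to GFP was 0.61 (0.33 to 0.90). *Hilpda* has the shortest transcript of the 9, with 985 bases, and expressed genes of that length had a median day 2 log2 ratio of 0.43, so that division by the length trend left 0.18, under the 0.37 left for *Plin3*. By the same division the change over time in Cre cells became 0.19 and that in GFP cells 0.17.

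**Figure D3:**
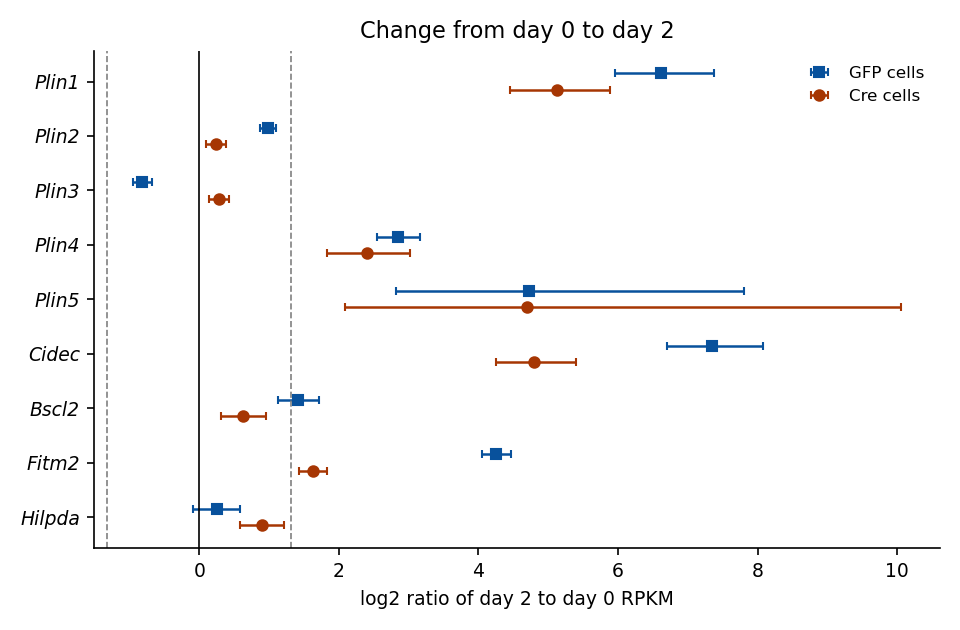
Log2 ratio of day 2 to day 0 RPKM (horizontal axis) for each gene in GFP cells (squares) and Cre cells (circles), with exact 95% counting intervals as bars and dashed lines at 2.5-fold. The intervals of GFP and Cre cells are apart for *Fitm2*, *Cidec*, *Plin1*, *Bscl2*, *Plin2* and, in the opposite order, *Plin3*, and *Plin5* has the widest intervals.

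In GFP cells 6 of the 9 genes gained over 2.5-fold by day 2 (*Plin1*, *Plin4*, *Plin5*, *Cidec*, *Bscl2* and *Fitm2*) and 0 were over 2.5-fold lower. Among all 11537 genes with an RPKM above 1 in GFP cells at day 0 or day 2, 8.37% were higher by that cutoff and 12.7% lower. All 9 genes met this RPKM limit, 5 of them at day 0, and *Plin1*, *Plin4*, *Plin5* and *Cidec* through day 2 alone, for which a rise follows in part from the limit. The median log2 change was 2.85 over the 9 genes and 0.15 over all expressed genes. In bulk RNA, fewer differentiated cells and less RNA per cell cannot be told apart.

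In Cre cells 5 of the 9 genes passed 2.5-fold upwards by day 2, the 6 above without *Bscl2*, and 0 were lower. Of all expressed genes 8.67% were higher and 10.0% lower. The median log2 change was 1.63 over the 9 genes and −0.01 over all. The genes differed in how much of the GFP change remained in Cre cells. The change in Cre cells divided by that in GFP cells was lowest for *Fitm2*, at −2.63 on the log2 scale (−2.92 to −2.34), followed by *Cidec* at −2.55 (−3.48 to −1.65) and *Plin1* at −1.50 (−2.54 to −0.46). *Bscl2* (−0.78) and *Plin2* (−0.74) came next, also with intervals below 0. *Plin4*, by contrast, had a ratio of changes of −0.44 with an interval that includes 0 (−1.10 to 0.25), and with 1 RPKM added to both sides it was −1.09. For *Plin5* (−0.03) the interval from −4.35 to 5.91 shows only that the reads were too few. *Plin3* (1.10, 0.90 to 1.30) and *Hilpda* (0.65, 0.19 to 1.12) had the higher change in Cre cells. Division by the length trend described below, an alternative chosen for these ratios after seeing the data, left 1.14 for *Plin3* and 0.02 for *Hilpda*.

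At day 0, 1 of the 9 genes was over 2.5-fold lower in Cre than in GFP cells (*Plin4*) and 0 were higher, where 4.12% of all expressed genes were lower and 1.27% higher. At day 2, 4 of the 9 were over 2.5-fold lower (*Plin1*, *Plin4*, *Cidec* and *Fitm2*) and 0 were higher. This is the meaning of MLL4-dependent here, and 10.1% of all expressed genes were lower by that cutoff and 8.15% higher. The 4 genes were also among the 6 that were higher at day 2 in GFP cells, and 3.89% of all expressed genes were both. The RPKM limit of expressed genes was set on GFP cells alone. *Plin1*, *Plin4* and *Cidec* met it through GFP cells at day 2 alone, so that being lower in Cre cells follows in part from the limit. Genes above the limit in Cre cells alone are left out of the shares. *Plin5* (2.32-fold lower) and *Plin2* (2.27-fold lower) lay just outside the cutoff. Of the 4 genes past it *Plin1* was the nearest, at 3.21-fold lower (2.93 to 3.52), an interval wholly past the cutoff. The median day 2 log2 ratio was −1.21 over the 9 genes and −0.16 over all expressed genes. With TMM scaling the median of all genes was −0.01, and every ratio of Cre to GFP cells at day 2 was higher by 0.16. Under TMM scaling 57.3% of all genes past the cutoff at day 2 were the higher ones in Cre cells, against 44.7% with the deposited scaling. The day 0 and day 2 contrasts and the changes over time share libraries, so their values are not independent of each other.

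**Figure D4:**
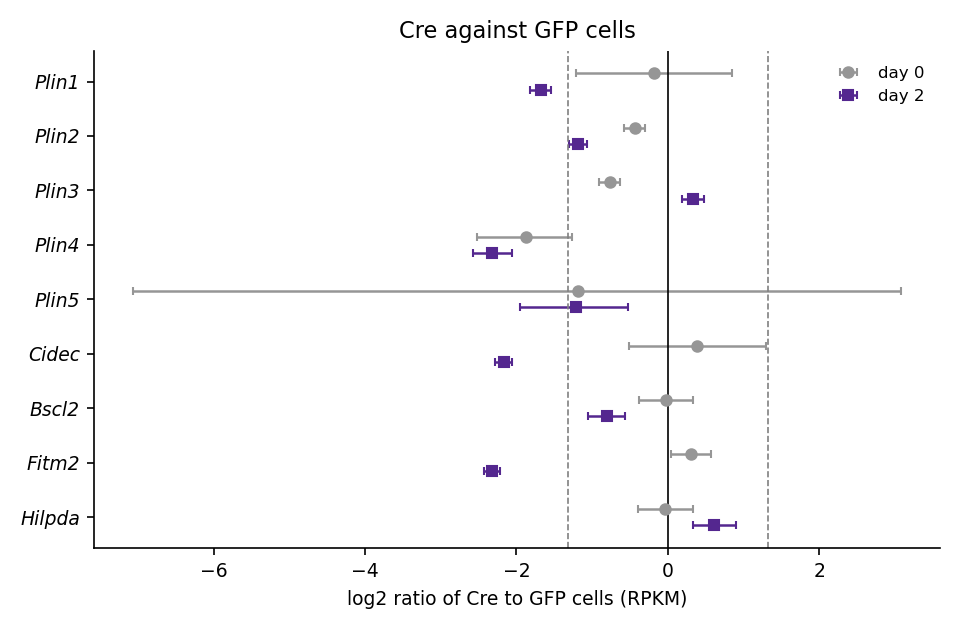
Log2 ratio of Cre to GFP RPKM (horizontal axis) for each gene at day 0 (circles) and day 2 (squares), with exact 95% counting intervals as bars and dashed lines at 2.5-fold. *Plin1*, *Cidec* and *Fitm2* are past the lower line at day 2 with day 0 values between −0.18 and 0.38, *Plin4* is past it on both days, and *Plin3* changes side of 0.

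The Cre library at day 2 differed from the others in how its values depend on transcript length. In 20 bins of expressed genes by exon length, the median log2 ratio of Cre to GFP at day 2 went from 0.51 in the shortest bin to −0.81 in the longest, and the change over time in Cre cells from 0.85 to −0.67. In GFP cells the medians of the change over time lay between 0.07 and 0.23. The droplet genes other than *Hilpda* and *Plin4* were counted over between 1643 and 2159 bases, where the day 2 medians lay between −0.04 and 0.18. For *Fitm2* the counted 1643 bases were used, whereas its annotated transcript has 3967. In the bin with a median length of 4009 bases the day 2 median was −0.45, so the divided value of *Fitm2* depends on the length taken. Division by this trend gave day 2 log2 ratios of −2.50 for *Fitm2*, −2.35 for *Cidec*, −1.70 for *Plin1* and −1.68 for *Plin4*, whose transcript of 5755 bases is the longest. The same 4 genes stayed over 2.5-fold lower, and the origin of the trend was not tested. Counts of this library also summed to 87.8% of its mapped reads, against 96.1% to 99.4% in the others.

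**Figure D5:**
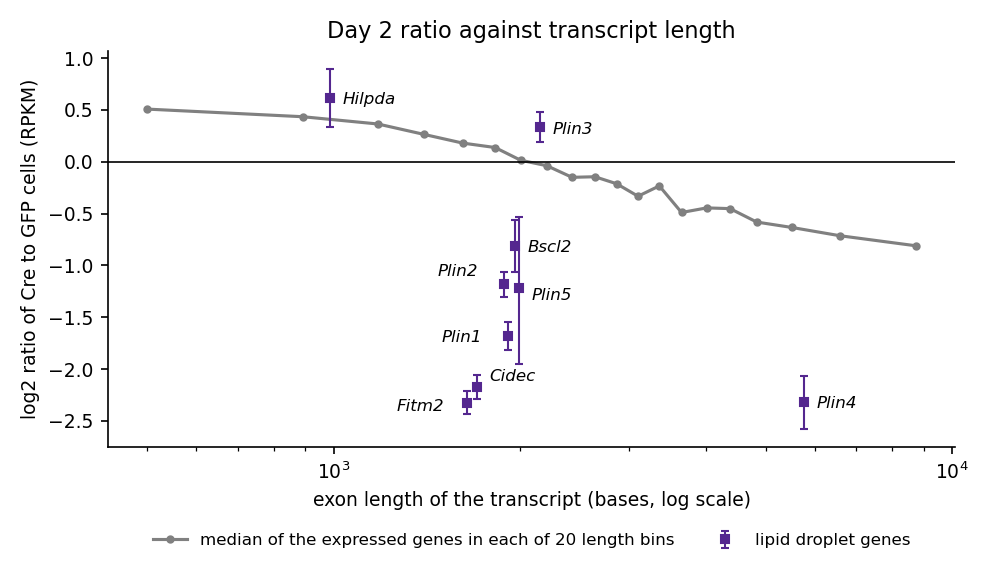
Log2 ratio of Cre to GFP RPKM at day 2 (vertical axis) against exon length in bases (horizontal axis, log scale), with the 9 genes as squares with exact 95% counting intervals and the medians of 20 bins of expressed genes as the line. The line falls from 0.51 to −0.81, *Hilpda* lies near it, and *Plin1*, *Plin4*, *Cidec* and *Fitm2* lie far below it. *Fitm2* is placed at its counted 1643 bases.

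Genes that act on the droplet beside these proteins were counted from lists, to be read against the shares of all expressed genes given above: 8.37% higher and 12.7% lower over time in GFP cells, 8.15% higher and 10.1% lower in Cre cells at day 2, and 3.89% both higher in GFP cells and lower in Cre cells. Of 6 lipolysis genes, 5 were expressed, and all 5 were over 2.5-fold higher at day 2 in GFP cells and over 2.5-fold lower in Cre cells at day 2, with a median log2 ratio of −2.14. Being expressed was judged in GFP cells alone, so that for genes scarce at day 0 the counts of lists follow in part from that limit. *Lipe*, hormone-sensitive lipase, went from 6.48 to 264 RPKM in GFP and from 4.15 to 60.0 in Cre cells. *Pnpla2*, the lipase that HILPDA inhibits, went from 7.32 to 237 and from 9.17 to 53.5 RPKM. *Abhd5*, the co-activator of ATGL that PLIN1 holds, went from 9.20 to 108 and from 10.9 to 24.1 RPKM. *G0s2*, an inhibitor of ATGL, went from 2.28 to 339 and from 1.82 to 100 RPKM, with a day 2 log2 ratio of Cre to GFP of −1.76. The brake and its target were thus both lower in Cre cells at day 2, whereas *Hilpda* was not.

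Of 9 enzymes of triglyceride and phospholipid synthesis, 6 were higher at day 2 in GFP cells and the same number lower in Cre cells at day 2, with a median log2 ratio of −1.78. *Acsl1*, a long-chain acyl-CoA synthetase, reached 354 RPKM in GFP and 57.8 in Cre cells at day 2 (log2 ratio −2.61). *Dgat2*, which makes triglyceride from diacylglycerol, reached 152 and 35.7 RPKM (−2.09). *Lpin1*, a phosphatidate phosphatase, reached 64.1 and 12.7 RPKM (−2.33), and *Agpat9*, a glycerol-3-phosphate acyltransferase, 81.1 and 11.4 RPKM (−2.83). *Agpat6* (−0.44) and *Pcyt1a* (−0.57), the latter of phosphatidylcholine synthesis, did not pass the cutoff.

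The other droplet proteins did not share this pattern as a list. Of 16 expressed among 17, 2 were higher and 2 lower at day 2 in GFP cells, and 1 was higher and 2 lower in Cre than in GFP cells at day 2, with a median log2 ratio of −0.11, against −0.16 over all expressed genes. *Aifm2*, known as FSP1, had 60.8 and 17.4 RPKM in GFP and Cre cells at day 2 (log2 ratio −1.81), and *Vps13c*, a lipid transfer protein, 3.60 and 0.804 RPKM (−2.16). *Hsd17b11* was higher, with 4.92 and 13.3 RPKM (1.43). *Cav1*, caveolin-1, and its partner *Ptrf* had day 2 log2 ratios of 0.12 and 0.10.

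Since *Hilpda* is a target of hypoxia-inducible factors, 10 other such targets were set beside it. In GFP cells 1 was higher and 3 were lower at day 2, and between GFP and Cre cells at day 2, 2 were higher and 2 lower in Cre cells. Their median log2 ratio at day 2 was 0.42. *Ndrg1* had 4.89 RPKM in GFP and 48.1 in Cre cells (log2 ratio 3.30) and *Ankrd37* 0.337 and 2.39 RPKM (2.83). *Vegfa* had 208 and 52.9 RPKM (−1.97) and *Pdk1* 14.7 and 4.51 RPKM (−1.71). *Ldha* (0.45) and *Slc2a1* (0.39) were nearer to *Hilpda* (0.61). The ratios of these targets were not divided by the length trend, which left 0.18 for *Hilpda*. The part of the trend in these counts and in this nearness was not tested.

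Of 19 neighbours of these genes on the chromosome, 15 were expressed, by the same limit set on GFP cells alone. Over time in GFP cells 5 of these were over 2.5-fold higher and 1 lower, at day 2 in Cre cells 0 were higher and 6 lower, and 3 were both higher in GFP cells and lower in Cre cells, to be read against the same shares of all expressed genes. *Pex11a*, a peroxisome gene 3180 bases from *Plin1*, had 2.45 and 15.5 RPKM in GFP cells before and after 2 days and 1.40 and 2.84 RPKM in Cre cells, with a day 2 log2 ratio of −2.45. *Lrg1*, 2083 bases from *Plin5*, had 0.215, 16.2, 0.0379 and 5.66 RPKM in the order of libraries above. *Rpusd3*, 5285 bases from *Cidec*, had 4.95, 35.6, 5.01 and 16.3 RPKM. 2310001K24Rik, which shares 39 bases with the *Fitm2* transcript on the opposite strand, had 19, 257, 20 and 34 reads and a day 2 log2 ratio of −2.57. Other neighbours differed from the gene beside them. *Haus6* and *Dennd4c*, next to *Plin2*, had log2 changes over time of 0.62 and 0.49 in GFP cells and of −1.42 and −1.29 in Cre cells. Their day 2 ratios were −1.59 and −1.89, past the cutoff that *Plin2* did not reach by the deposited RPKM. Division by the length trend moved the *Plin2* ratio to −1.32. The ratios of neighbours were not divided by it, so its part in this contrast was not tested. *Hdgfrp2*, which shares 6 bases with the *Plin4* transcript on the opposite strand, had changes of 0.91 and 1.06 and a day 2 ratio of 0.25, and *Ubxn6*, also next to *Plin4*, a day 2 ratio of 0.53. *Jagn1*, by *Cidec*, had changes of 1.53 and 0.59 and a day 2 ratio of −0.67. By *Bscl2*, *Lrrn4cl* was lower in Cre cells on both days (−3.16 and −2.11), and *Hnrnpul2* had a day 2 ratio of 0.02. *Impdh1*, by *Hilpda*, had a day 2 ratio of 0.28. *Kif7*, 6977 bases on the other side of *Plin1*, had log2 changes over time of −0.11 in GFP and −0.22 in Cre cells, and *Ticam1*, 2175 bases from *Plin3*, had −0.23 and −0.06.

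Across 11626 genes with at least 100 reads, the genes whose 4 values of log2(RPKM + 0.1), centred on their mean, lay closest to each member were named as a description over 4 libraries. Closest to *Plin1* were *Fam107a* (distance 0.293) and *Mgll* (0.407), the latter monoglyceride lipase of the lipolysis list. Closest to *Cidec* was *Zbtb16* (0.171), and to *Fitm2* *Mlxipl* (0.231) and *Slc1a5* (0.239). *Mlxipl* had 0, 144, 2 and 23 reads in the order of libraries above, so that its day 0 values rest mostly on the added 0.1 RPKM. *Slc1a5*, a glutamine carrier, had 25.7, 437, 35.1 and 106 RPKM in the order of libraries above. *Plin4* was nearest to *Anxa8* (0.308) and *Dio3os* (0.395), *Bscl2* to *Nfs1* (0.0726) and *Shld1* (0.0833), *Plin2* to *Mccc1* (0.0444) and *Marchf3* (0.0647), *Plin3* to *Mpg* (0.0956) and *Dbp* (0.102), and *Hilpda* to *Otulin* (0.0311) and *Psmb1* (0.0390). *Plin5*, with fewer than 100 reads in all, was not entered.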

How the data were processed

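The authors aligned 50-base reads to NCBI37/mm9 with the Illumina pipeline and collected reads on RefSeq exons. They deposited the read count of each transcript without normalization, and RPKM, the count divided by exon length and mapped reads. The treatment of reads with several matches, strand and replicate cultures are not given in the sources used here. SICER 1.1 and bedtools 2.16, named in the submitters' processing notes, were not applied here. Transcripts of a gene share reads.

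Expressed genes had an RPKM above 1 at either day in GFP cells. This and the 2.5-fold cutoff follow the study's methods, which do not name the day of MLL4 dependence, and day 2 was used. With 1 library per condition no test was run. Exact binomial intervals of read ratios and exact conditional intervals of ratios of changes came from scipy 1.17.1, under Python 3.11.15 (numpy 2.4.6, pandas 2.3.3, matplotlib 3.10.9), and the former were checked on simulated data. edgeR 4.0.16 (R 4.3.3) gave TMM factors without a test. Symbols came from RefSeq GRCm38.p6 (97.8% of transcripts), positions from GENCODE vM1, and 50-base windows were matched with blastn 2.17.0.

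The 9 genes, the lists and the rules were chosen with earlier results of these data known. Of each list, up to 4 genes past 2.5-fold between GFP and Cre cells at day 2 and 2 others, by most reads, were named, together with the expressed adjacent genes and the 2 genes most alike to each member, of which 1 is not reported here. Alternative settings were sum-of-count scaling, TMM, cutoffs of 2 and 4, 1 RPKM added, at least 20 reads, the interval bound, RPKM limits of 0.5 or in any library, the mean over transcripts, other transcripts and a length trend of 20 bins.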

Additional observations from a re-analysis of the deposited data

Results flagged for a closer look

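Of the 9 droplet genes and the 41 expressed genes of the other lists, 8 moved in opposite directions over the 2 days in GFP and Cre cells, each with counting intervals that exclude 0. There was 1 library per condition, and the difference was not tested between cultures. *Plin3*, the 1 droplet gene among them, had a log2 change of −0.82 in GFP and 0.28 in Cre cells. For *Vps13c* the changes were 0.62 and −1.19, for *Hsd17b11* −1.11 and 0.46, and for *Ndrg1* −2.29 and 0.12. The other 4 lie outside the rule for named genes and are given because they met the same condition, a choice made after their values were seen. The changes were −1.0 and 0.18 for *Egln3*, −0.39 and 0.13 for *Rab8a*, 0.17 and −0.22 for *Rab18*, and 0.15 and −0.20 for *Faf2*. The share of all expressed genes that moved in opposite directions was not computed. With TMM scaling every change in GFP cells is lower by 0.10. The lower bounds of *Rab18* and *Faf2* in GFP cells were 0.06, so that with TMM these 2 no longer exclude 0. The trend over transcript length in the Cre library at day 2 moves with these values, and with it divided out *Plin3* had −1.05 and 0.08. Its part in the other 7 was not tested.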

How the results depend on the processing

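No paired analysis was possible because each condition has 1 library. The count of genes over 2.5-fold higher at day 2 stayed between 4 and 6 in GFP cells under the 11 alternatives, against 6, and that of genes lower in Cre cells at day 2 between 3 and 6, against 4. In Cre cells the count of genes higher at day 2 was between 4 and 5, against 5, under 10 alternatives and 3 with 1 RPKM added, by construction of the added value on genes near 1 RPKM. The count lower at day 0, 1 by the main setting (*Plin4*), was 2 with a cutoff of 2, and 0 with a cutoff of 4, with 1 RPKM added and with the interval bound past the cutoff. Of the single values under alternatives, 201 stayed within the counting interval, 31 left it, and 0 changed sign where the interval excluded 0. Sum-of-count scaling changed the share of higher genes among all genes past the cutoff from 44.7% to 55.4% between GFP and Cre cells at day 2, and from 46.4% to 59.0% over time in Cre cells, and the length trend changed the former to 57.7%. Depth limits *Plin5* most, with 2 and 1 reads at day 0. Intervals cover counting error of these libraries, not differences between cultures.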
